A study of Mus musculus with 16 samples.

Results

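The genes described here are 9 transcripts that hepatocytes around the central vein express under Wnt signalling, namely Glul, Slc1a2, Rhbg, Oat, Axin2, Rnf43, Znrf3, Lgr5 and Tbx3. They were taken by name from the 32989 genes of the deposited tables, in which each of the 9 symbols had 1 row, and all 9 passed the filter on low values in both organs. Poly(A)-enriched RNA of liver and kidney was sequenced from male C57BL/6J mice aged 97 weeks, with 4 mice per condition, 8 mice in all and 16 libraries. LD-conditioned mice (L63, L65, L86 and L104) lived under a fixed light period from 8:00 to 20:00, and ADV-conditioned mice (A75, A91, A94 and A115) had their light cycle advanced by 8 h every 4 days for 85 weeks, a form of chronic jet lag. The labels name no transgene or agent in any group, and all tissues were collected between 13 and 16 h after the last light-on. In tissue sections the study counted significantly fewer parenchymal cells near the central veins under ADV than under LD. This raises the question of whether the RNA of that zone differed between the conditions in whole liver. In whole tissue, fewer cells of a type and less RNA per cell cannot be told apart.

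Liver lobules are zoned: blood enters at the portal tract and leaves at the central vein, and hepatocytes along this path divide the metabolic work. Endothelial cells of the central vein release Wnt ligands and R-spondin 3, which keep beta-catenin active in the neighbouring hepatocytes and so maintain pericentral gene expression. The last rows of hepatocytes before the vein capture the ammonia that periportal urea synthesis has missed and fix it into glutamine. In the kidney the same genes are used in other settings: glutamine synthetase and the ammonium transporter Rhbg take part in renal ammonia handling, and the kidney therefore serves as a contrast organ without central veins.

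RefSeq promoter windows (GRCm38.p6) were at hand for 5 of the 9 members, and the 250 bases before the start site are shown for 3 of them: Glul, the classical pericentral marker; Axin2, the classical feedback target; and Slc1a2, the member with the largest difference between the organs. Capitals mark a match to the words bound by TCF/LEF factors that were searched on both strands, namely CTTTGAA or its variant CTTTGAT along with the words CTTTGTA and, as the last one, CTTTGTT. The windows lie at chr1:153899679-153899928 (plus strand), chr11:108920099-108920348 (plus strand) and chr2:102706188-102706437 (plus strand).
Glul: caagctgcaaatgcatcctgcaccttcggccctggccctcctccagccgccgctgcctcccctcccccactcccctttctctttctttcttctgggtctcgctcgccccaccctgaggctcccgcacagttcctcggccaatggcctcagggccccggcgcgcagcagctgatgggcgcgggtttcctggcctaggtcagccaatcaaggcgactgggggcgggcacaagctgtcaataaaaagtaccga
Axin2: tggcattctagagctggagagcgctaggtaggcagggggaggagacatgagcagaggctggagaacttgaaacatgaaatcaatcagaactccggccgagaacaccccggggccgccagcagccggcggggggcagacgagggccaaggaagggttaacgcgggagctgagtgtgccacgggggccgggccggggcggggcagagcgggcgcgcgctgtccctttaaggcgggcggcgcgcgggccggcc
Slc1a2: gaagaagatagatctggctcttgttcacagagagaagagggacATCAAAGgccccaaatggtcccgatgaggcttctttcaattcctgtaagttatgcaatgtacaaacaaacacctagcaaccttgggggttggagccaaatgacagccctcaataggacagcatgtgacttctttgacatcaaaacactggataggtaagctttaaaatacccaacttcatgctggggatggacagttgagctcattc
The Slc1a2 window held 1 such word, on the minus strand, starting at position -207 relative to the start site, and the windows of Glul, Axin2, Oat and Rnf43 held none. Of all 32851 promoter windows of this length, 14.8% held at least 1 word, so that 1 gene of 5 is near that share. The words say nothing of enhancers outside the window. Lgr5, Tbx3, Rhbg and Znrf3 had no entry.

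In mm10, the build of the tables, Glul lies on chromosome 1 (153899929 to 153909723, plus strand), Slc1a2 on 2 (102706438 to 102790784, plus), Rhbg on 3 (88242874 to 88254684, minus) and Oat on 7 (132557475 to 132576398, minus). Chromosome 11 holds Axin2 (108920349 to 108950783, plus), Rnf43 (87663087 to 87735539, plus) and Znrf3 (5276329 to 5444847, minus), while Lgr5 lies on 10 (115450314 to 115587780, minus) and Tbx3 on 5 (119671233 to 119684724, plus). Values cover all exons of 1 transcript model per gene, UTRs included. Exon bases are shared with an antisense gene in Slc1a2 and Axin2 (189 and 209 bases) and in Tbx3 (Tbx3os1). Glul shares 93 bases with the microRNA gene Mir8114 on the same strand and 116 bases with Teddm2 on the opposite strand.

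Libraries held 22740000 to 26290000 fragments in liver and 17120000 to 19700000 fragments in kidney, rounded. Values are FPKM, fragments scaled to exon length and library total, so 1 fragment on a kilobase was worth 0.0380 to 0.0440 FPKM in liver and 0.0508 to 0.0584 FPKM in kidney. The tissue labels held for their markers: the 6 hepatocyte genes summed to 57534 to 71436 FPKM in livers and 49.3 to 97.6 FPKM in kidneys, while the 6 proximal tubule genes summed to 18378 to 46278 FPKM in kidneys and at most 0.119 FPKM in livers. One library stood farthest apart in each organ. The liver of A94 had a mean correlation of 0.941 with the other livers, against 0.977 to 0.982 for the other 7. Its lymphocyte markers (8, none at 0) summed to 77.9 FPKM against 3.59 to 7.14 FPKM in the others, its 8 stellate and fibroblast markers to 347 FPKM against 123 to 217 FPKM, and its 5 cycling markers to 14.7 FPKM against 0.840 to 3.10 FPKM. The kidney of A115 had a mean correlation of 0.858 against 0.932 to 0.964, a mitochondrial share of 33.8% against 9.43% to 18.02%, and 15454 genes above 0 against 17207 to 18828. The kidney of A94 had the next lowest mean correlation (0.932), and its lymphocyte markers summed to 87.4 FPKM against 6.79 to 14.3 FPKM in the other kidneys. Differences of the members without A94 in liver and without A115 in kidney are given beside the results. The labels name 2 sequencing providers and instruments without assigning them to libraries, so a batch of that kind cannot be told apart from the conditions or from the organs.

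In liver the members' mean levels, compared per length in FPKM, ran from 298 FPKM for Oat to 0.932 FPKM for Lgr5. Oat, which converts ornithine in the glutamate pathway, averaged 298 ± 57.6 FPKM (SD, n = 8 mice). Glul, glutamine synthetase, averaged 265 ± 53.1 FPKM. Oat exceeded Glul in 6 of 8 mice, a pair of neighbours that did not differ beyond their spread (exact sign-flip permutation test over the 8 mice, two-sided, p = 0.352, adjusted p = 0.402 over 8 neighbouring pairs). Slc1a2, the glutamate transporter GLT-1, came next with 19.4 ± 3.23 FPKM, below Glul in 8 of 8 mice. Tbx3, a T-box transcription factor, averaged 4.49 ± 1.10 FPKM, and the ubiquitin ligase Rnf43 averaged 3.23 ± 0.655 FPKM. Each of these steps below Glul, and the step from Rhbg to Znrf3, held in 8 of 8 mice (exact p = 0.00781, the smallest 8 mice can give, adjusted p = 0.0156). Rhbg, an ammonium transporter, averaged 2.74 ± 1.31 FPKM and was not separated from Rnf43 (exact p = 0.0781, adjusted p = 0.125). The lowest levels belonged to the ubiquitin ligase Znrf3 (1.12 ± 0.154 FPKM), the scaffold Axin2 (0.998 ± 0.323 FPKM) and the R-spondin receptor Lgr5 (0.932 ± 0.306 FPKM), and neighbours among these 3 did not differ beyond their spread (exact p = 0.336 and 0.719, adjusted p = 0.402 and 0.719). Even the lowest value, Lgr5 in L104, rested on 43.5 fragments, where each read of a pair counts 0.5.

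In kidney the order was different. Glul led with 266 ± 27.9 FPKM (n = 8), followed by Oat at 78.9 ± 15.4 FPKM and Rhbg at 8.25 ± 3.65 FPKM. Rhbg thus stood at rank 3 in kidney and at rank 6 in liver. Znrf3 averaged 1.77 ± 0.158 FPKM, Tbx3 1.31 ± 0.493 FPKM, Rnf43 0.997 ± 0.463 FPKM, Slc1a2 0.604 ± 0.0661 FPKM, Axin2 0.393 ± 0.208 FPKM and Lgr5 0.148 ± 0.0595 FPKM. From Tbx3 down to Axin2 neighbours did not differ beyond their spread (adjusted exact p = 0.0625 to 0.547 over 8 pairs), whereas the other 5 neighbouring pairs did (adjusted exact p = 0.0312 to 0.0375). Rnf43 was above Slc1a2 in 7 of 8 kidneys, A115 being the exception. Without A115, a choice made after seeing the data, that step passed (adjusted exact p = 0.0250) and the step from Znrf3 to Tbx3 did not (adjusted exact p = 0.0625). Lgr5 rested on only 5 to 19 fragments per kidney.

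**Figure D1:**
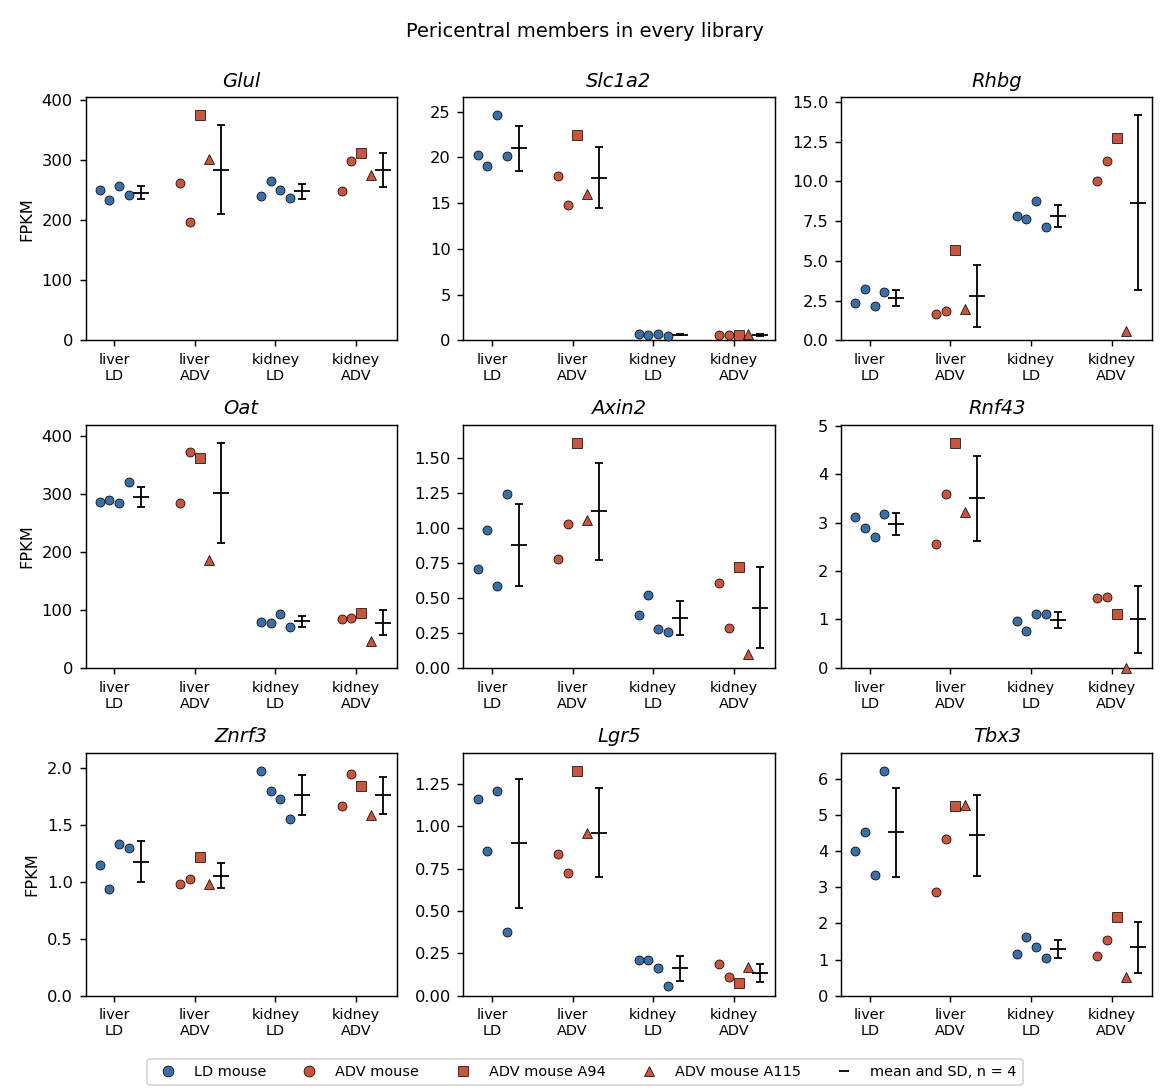
FPKM (linear axes from 0) of each member in the 4 LD-conditioned and 4 ADV-conditioned mice, liver on the left and kidney on the right of each panel, with 1 point per library and the mean with its SD beside each group. In liver the square of A94 is the highest ADV point for Glul, Slc1a2, Rhbg, Axin2, Rnf43, Znrf3 and Lgr5, and in kidney the triangle of A115 is the lowest point for Rhbg, Oat, Axin2, Rnf43 and Tbx3.

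The first comparison asked whether pericentral Wnt-dependent RNA differed between ADV-conditioned and LD-conditioned livers. No member passed the test: 0 of 9 reached an adjusted p of 0.05 (limma, Benjamini-Hochberg over 12835 genes), 0 of 9 had an unadjusted p under 0.05, and limma-voom on the recovered fragments likewise called 0 of 9 and 1 gene in all. Few genes of the liver passed this test at all (1 of 12835, 0.00779%), although 11.8% had an unadjusted p under 0.05. In none of the 9 members were the ADV and LD groups fully apart, which was the case for 8.84% of all genes tested. The median difference of the members was -0.02 on the log2(FPKM + 0.1) scale, against 0.10 for all genes tested, with 4 members above 0 and 5 below. It was -0.12 without A94 (0.02 for all genes) and 0.13 without A115 (0.09 for all genes). Without A115, 5 members were above 0 and 4 below. Scaling the libraries by the median ratio moved the median of all genes to 0.01 and that of the members to -0.11, and left 0 of 9 called, with 1 of 9 (Slc1a2, lower) at an unadjusted p under 0.05, as 13.3% of all genes were in that fit.

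Within the ammonia and glutamate module, Glul measured 251, 233, 258 and 242 FPKM in the LD-conditioned livers and 261, 198, 375 and 302 FPKM in A75, A91, A94 and A115. The LD-conditioned livers thus lay within a narrow band, and the ADV-conditioned livers spread to both sides of it. The difference was 0.17 on the log2 scale (95% interval -0.22 to 0.57, limma adjusted p = 0.668), and 0.02 without A94. Slc1a2 measured 20.3, 19.1, 24.6 and 20.1 FPKM under LD and 17.96, 14.8, 22.5 and 15.98 FPKM under ADV. All ADV-conditioned livers but that of A94 were below every LD-conditioned liver. Its difference was -0.25 (interval -0.57 to 0.07, limma adjusted p = 0.487, exact permutation p = 0.171), and it was the smallest unadjusted p among the members (0.113). With all 8 livers, median ratio scaling gave -0.34 (interval -0.60 to -0.08, unadjusted p = 0.0164, limma adjusted p = 0.299) and quantile normalization -0.31 (unadjusted p = 0.0341, limma adjusted p = 0.365).

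Rhbg measured 2.37, 3.21, 2.16 and 3.03 FPKM under LD and 1.67, 1.85, 5.68 and 1.96 FPKM under ADV. As with Slc1a2, A75, A91 and A115 were below every LD-conditioned liver, while A94 was above all of them. The difference over all 8 livers was -0.12 (interval -0.91 to 0.67, limma adjusted p = 0.893). Part of the Rhbg exons, 1190 bases, is shared on the same strand with the annotated gene Gm38392 in GENCODE vM21, so that fragments of the pair cannot be told apart there. Oat measured 286, 289, 284 and 320 FPKM under LD and 285, 372, 363 and 187 FPKM under ADV. Its LD group was again the tighter one (SD 17.1 against 86.2 FPKM, n = 4 each), and its mean difference was -0.02 (interval -0.47 to 0.44, limma adjusted p = 0.977), or -0.12 without A94 and 0.20 without A115.

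Without the liver of A94, the difference of Slc1a2 was -0.37 (interval -0.62 to -0.11) and that of Rhbg -0.52 (interval -0.88 to -0.16). Both then had groups that did not overlap, lower in ADV, as 5.19% of all genes tested did (13.6% in either direction), with unadjusted p of 0.01003 and 0.009997. Neither passed the adjusted threshold (limma adjusted p = 0.225 for both, with 0.00797% of genes called and 14.5% at an unadjusted p under 0.05), and these 2 members were singled out after their values were seen. Scaling by the median ratio without A94 gave -0.39 and -0.54 (limma adjusted p = 0.200 and 0.179).

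Among the negative-feedback members, Axin2, a scaffold of the beta-catenin destruction complex and a direct Wnt target, measured 0.707, 0.983, 0.586 and 1.24 FPKM under LD and 0.779, 1.03, 1.60 and 1.06 FPKM under ADV. The groups overlapped, and the difference of 0.32 had an interval from -0.28 to 0.92 (limma adjusted p = 0.599), and was 0.14 without A94 and 0.055 under quantile normalization. Rnf43, which removes Frizzled receptors from the membrane, measured 3.12, 2.89, 2.69 and 3.18 FPKM under LD and 2.55, 3.58, 4.64 and 3.23 FPKM under ADV. A75 had the lowest and A94 the highest of the 8 values, and the difference was 0.20 (interval -0.19 to 0.60, limma adjusted p = 0.614), and 0.058 without A94. Znrf3, the paralogue of Rnf43, measured 1.15, 0.941, 1.34 and 1.30 FPKM under LD and 0.984, 1.03, 1.22 and 0.986 FPKM under ADV. It differed by -0.14 (interval -0.51 to 0.22, limma adjusted p = 0.702), by -0.21 without A94 and by -0.40 under quantile normalization (unadjusted p = 0.0390, limma adjusted p = 0.375), so the paralogues had estimates of opposite sign that were both within the spread between mice.

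Lgr5, the receptor that lets R-spondins shield Frizzled from these ligases, measured 1.16, 0.856, 1.21 and 0.378 FPKM under LD and 0.837, 0.723, 1.33 and 0.960 FPKM under ADV. L104 had the lowest value of the 8, and the difference of 0.16 had an interval from -0.58 to 0.90 (limma adjusted p = 0.848), turning to -0.16 without L104 and to -0.12 under quantile normalization, and was 0.0049 without A94. Tbx3 measured 4.02, 4.53, 3.35 and 6.25 FPKM under LD and 2.88, 4.35, 5.27 and 5.28 FPKM under ADV. Its groups covered nearly the same range, with a difference of -0.03 (interval -0.56 to 0.50, limma adjusted p = 0.963), or -0.12 without A94. Over the 9 members the intervals allowed differences of up to 0.92 on the log2 scale in one or the other direction, which is the precision that 4 mice per group gave.

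**Figure D2:**
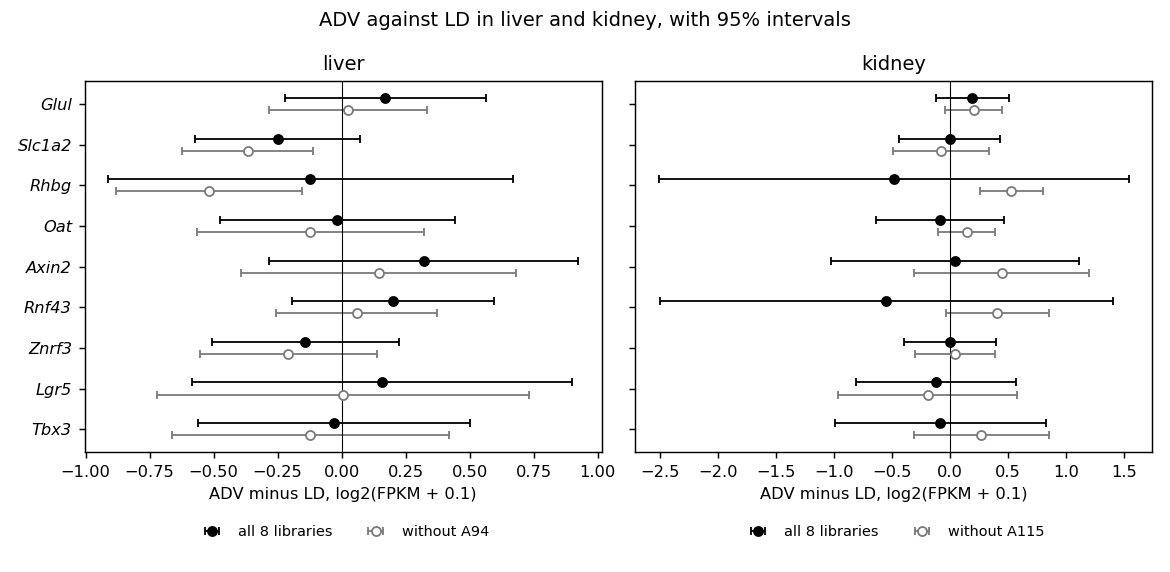
Difference of ADV minus LD on the log2(FPKM + 0.1) scale for each member, with its 95% limma interval, in liver (left) and kidney (right). Filled points use all 8 libraries of the organ, open points leave out A94 in liver and A115 in kidney. All 18 filled intervals include 0, and the open intervals of Slc1a2 and Rhbg in liver and of Rhbg in kidney do not.

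Other genes of the lobule and of the Wnt pathway were read from lists to set the members in context. Of 40 further pericentral genes tested in liver, 0 passed the adjusted threshold, 2 were higher and 3 lower at an unadjusted p under 0.05 (limma), and their median difference was -0.03. Over the 39 of them tested without A94 the median was -0.01. Of 31 periportal genes, 0 passed, 5 were higher and 4 lower at that level, which 11.8% of all genes reached, and the median was -0.12 (0.0015 without A94). Nr1i3, the nuclear receptor CAR, measured 65.3 to 71.3 FPKM under LD and 38.0 to 53.4 FPKM under ADV. The groups of this gene did not overlap, which was the case for 8.84% of all genes tested. Of the 40 pericentral genes, 1 had such groups with ADV lower and 1 with ADV higher. The difference of Nr1i3 was -0.56, with an unadjusted limma p of 5.7e-04 but a limma adjusted p of 0.234. The other pericentral genes with the smallest p were Cyp2c38 (0.66, limma adjusted p = 0.296) and the bile acid enzyme Cyp8b1 (-1.45, limma adjusted p = 0.382). Periportal genes with the smallest p were Apoa4 (1.31), the gluconeogenic enzyme Pck1 (-0.61) and the lipid transporter Mfsd2a (-0.88), with limma adjusted p of 0.269, 0.299 and 0.308.

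Pericentral cytochromes had estimates of both signs, and none passed the adjusted threshold. Cyp2e1 averaged 5247 ± 392 FPKM under LD and 4139 ± 597 FPKM under ADV (-0.35, limma adjusted p = 0.442), and Cyp1a2 264 ± 21.7 and 224 ± 28.2 FPKM (-0.24, limma adjusted p = 0.446). Cyp7a1, the rate-limiting enzyme of bile acid synthesis, varied most within the ADV group, from 11.6 to 135 FPKM (0.12, limma adjusted p = 0.947). Its highest value was that of A115, and the difference was -0.52 without A115 (limma adjusted p = 0.658) and 0.33 without A94. Periportal references did not pass either, with differences of -0.19 for Cyp2f2, -0.18 for the urea cycle enzyme Ass1, -0.17 for Cps1, which starts the urea cycle, and -0.10 for the glutaminase Gls2 (limma adjusted p = 0.567 to 0.824), of which those of Ass1, Cps1 and Gls2 turned to 0.0037, 0.040 and 0.027 without A94.

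Upstream of the members, the signal itself was examined. Of 19 Wnt ligands 6 were tested in liver and 0 passed the adjusted threshold or an unadjusted p of 0.05. Wnt2 and Wnt9b, ligands of the central vein and sinusoidal endothelium, were low, at 1.24 ± 0.390 and 1.12 ± 0.230 FPKM for Wnt2 and at 0.132 ± 0.0188 and 0.216 ± 0.0804 FPKM for Wnt9b under LD and ADV. Wnt9b did not overlap between the groups (0.104 to 0.144 against 0.151 to 0.331 FPKM), which was the case for 8.84% of all genes tested. Its difference of 0.42 did not pass (limma adjusted p = 0.495), was 0.26 without A94 and rested on 11.5 to 34 fragments per liver. Rspo3, the only R-spondin tested, measured 1.69, 1.58, 1.23 and 1.96 FPKM under LD and 2.52, 1.90, 4.26 and 2.57 FPKM under ADV. Every ADV-conditioned liver but A91 was above all LD-conditioned livers. The difference was 0.72 (interval 0.18 to 1.26), with an unadjusted p of 0.0145 and a limma adjusted p of 0.357, and it was 0.51 without A94. Wls, which carries Wnt ligands to the cell surface, measured 2.17 to 2.67 FPKM under LD and 3.17 to 5.01 FPKM under ADV (0.70, unadjusted p = 0.00203, limma adjusted p = 0.296), and Porcn, the acyltransferase that Wnt ligands require, differed by 0.12 (limma adjusted p = 0.823).

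These genes are expressed mainly outside hepatocytes, so markers of other cells are given beside them. In liver 0 macrophage, lymphocyte, stellate and fibroblast or endothelial markers passed the adjusted threshold. However, 7 of 7 macrophage markers had a positive estimate with a median of 0.78 (0.50 without A94), and 8 of 8 stellate and fibroblast markers had a positive estimate with a median of 0.68 (0.50 without A94). An unadjusted p under 0.05 (limma) was reached by 5 of 7 macrophage, 4 of 8 stellate and fibroblast, 1 of 8 lymphocyte and 0 of 7 endothelial markers. The share over all genes was 11.8%. The 8 lymphocyte markers had a median of 1.41 over all livers, and the 5 of them tested without A94 a median of 0.52. Of 5 cholangiocyte markers tested 4 had a positive estimate, with a median of 1.11 (0.91 without A94), and they summed to 19.97 to 27.8 FPKM under LD and 26.7 to 247 FPKM under ADV (26.7 to 53.6 FPKM without A94). The 5 cycling markers had a median of 1.16, and the 3 of them tested without A94 a median of 0.42. Of these cholangiocyte and cycling markers 0 passed the adjusted threshold. The 6 markers of central vein endothelium summed to 4.67 to 6.92 FPKM under LD and 5.72 to 8.27 FPKM under ADV, with none at 0. They include Rspo3, Wnt2 and Wnt9b, so this sum is partly set by the genes it is given beside and is no separate measure of those cells. Hepatocyte markers summed to 57534 to 71436 FPKM under LD and 57852 to 69294 FPKM under ADV. The part of these cell types in the values of Rspo3, Wls and the members was not tested.

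Among receptors, 0 of 11 genes tested passed the adjusted threshold, their median of 0.04 turned to -0.05 under median ratio scaling and to -0.04 without A94, and Fzd5, a Frizzled receptor, had the smallest p (-0.52, 0.980 to 1.27 FPKM under LD and 0.693 to 0.876 FPKM under ADV, limma adjusted p = 0.322). Fzd6 and the co-receptor Lrp6 followed with 0.34 and -0.24 (limma adjusted p = 0.511 and 0.514). Lgr4, the R-spondin receptor of most hepatocytes, was at 10.7 ± 0.983 and 11.03 ± 1.25 FPKM under LD and ADV (0.04, limma adjusted p = 0.878). Of 4 secreted or membrane antagonists tested, 2 were higher in ADV at an unadjusted p under 0.05, a level that 11.8% of all genes reached. These were Dkk3 (0.58) and Sfrp1 (1.40), and 0 passed the adjusted threshold (limma adjusted p = 0.326 and 0.369). The cytoplasmic components counted 15 genes tested with a median of -0.07 and none called, Dvl3 having the smallest p (-0.55, limma adjusted p = 0.296). Ctnnb1, which encodes beta-catenin, was at 54.4 ± 1.04 and 58.9 ± 2.99 FPKM (0.11, limma adjusted p = 0.540). For the nuclear components the median of 11 genes tested was 0.13, again with none called (-0.03 without A94), and the TCF genes Tcf7 and Tcf7l2 differed by 0.34 and 0.17 (limma adjusted p = 0.680 and 0.706), or -0.029 and 0.034 without A94.

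General Wnt targets were the list nearest in function to Axin2 and Rnf43. Their median over 10 genes tested was 0.15 in liver, -0.07 without A94, and 0 passed the adjusted threshold. The reference gene Notum, the secreted deacylase of Wnt ligands, was at 7.37 ± 0.933 and 7.86 ± 1.55 FPKM (0.08, limma adjusted p = 0.834, and -0.034 without A115). The feedback gene Nkd1 differed by 0.36 and the transcription factor Sp5 by 0.03 (limma adjusted p = 0.504 and 0.962), or 0.23 and -0.16 without A94. Myc had the smallest p of the list (0.84, unadjusted p = 0.0331, limma adjusted p = 0.391), and without A94 it was at 0.61 with an unadjusted limma p of 0.0704. In that fit 0 genes of the list were higher and 1 was lower at an unadjusted p under 0.05, which 14.5% of all genes reached. Without A94 no list of the pathway gained a gene past the adjusted threshold in liver.

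**Figure D3:**
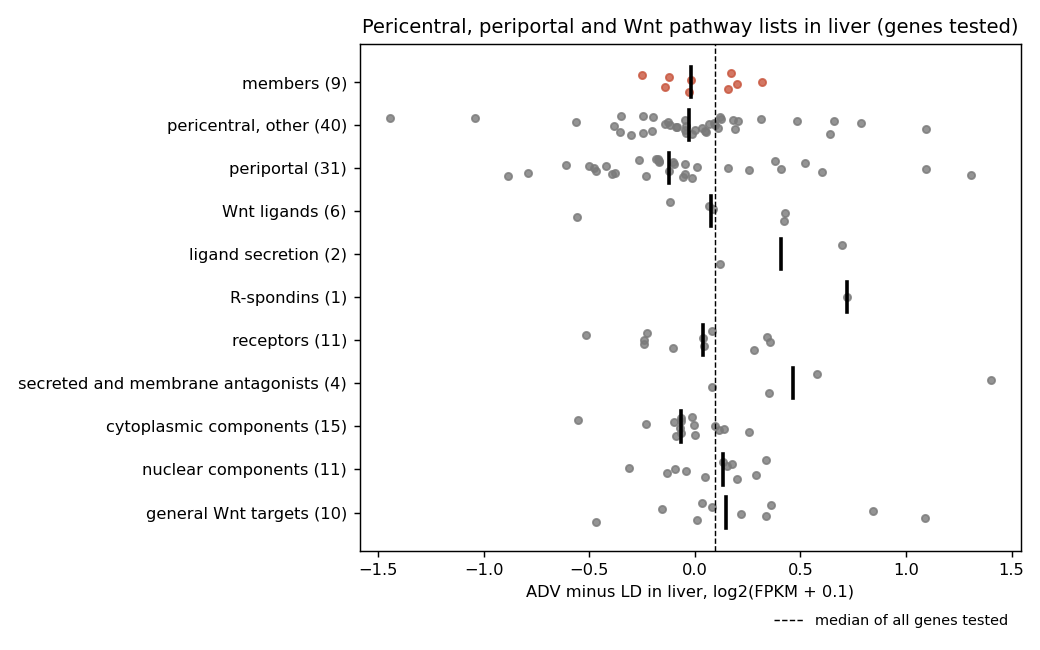
Difference of ADV minus LD in liver on the log2(FPKM + 0.1) scale, 1 point per gene tested, for the members and 10 lists of lobular and Wnt pathway genes, with the number of genes tested in parentheses. Thick bars are list medians and the dashed line is the median of all genes, 0.10. The members lie between -0.25 and 0.32, inside the range of the other pericentral genes.

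Kidney gave the same count over all libraries. Of the 9 members 0 passed an adjusted p of 0.05 and 0 had an unadjusted p under 0.05 in ADV-conditioned against LD-conditioned kidneys (limma, 14452 genes tested, of which 0 or 0% were called and 3.1% had an unadjusted p under 0.05), and limma-voom also called 0 of 9. In 2.8% of all genes the groups were fully apart, which was the case for 0 of 9 members. Glul measured 241, 265, 250 and 237 FPKM under LD and 248, 299, 313 and 275 FPKM under ADV. The difference of 0.19 (interval -0.12 to 0.51) did not pass (limma adjusted p = 0.9999). Slc1a2 was at 0.517 to 0.643 FPKM under LD and 0.538 to 0.723 FPKM under ADV, a difference of -0.0022 that turned to 0.00017 under median ratio scaling. Znrf3 (1.55 to 1.98 and 1.59 to 1.95 FPKM) and Lgr5 (0.0587 to 0.212 and 0.0757 to 0.189 FPKM) overlapped almost fully between the groups.

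The other 5 members were marked by the kidney of A115. Rhbg measured 7.81, 7.66, 8.74 and 7.11 FPKM under LD and 10.02, 11.3, 12.7 and 0.590 FPKM under ADV. Rnf43 measured 0.971, 0.761, 1.10 and 1.12 FPKM under LD, and 1.44, 1.46, 1.12 and 0 FPKM under ADV. The value of 0 in A115 allows up to 0.0364 FPKM, the worth of 3 fragments in that library, for counting error only. Axin2 was at 0.0983 FPKM in A115 and 0.259 to 0.723 FPKM in the other kidneys, Tbx3 at 0.524 against 1.05 to 2.19 FPKM, and Oat at 46.2 against 70.4 to 94.1 FPKM. Relative to the median of the other 7 kidneys, A115 held 0.0676 times the Rhbg and 0.392 times the Tbx3, but 1.10 times the Glul level, while the median ratio over all genes tested was 0.678 and 38.8% of genes were under 0.5. Most tubular markers were also low in the same library. Aqp2, the water channel of the collecting duct, was at 0.0191 times the median of the others. It was the lowest of the 8 thick limb, distal tubule and collecting duct markers, with the proton pump subunit Atp6v0d2 highest at 1.56 times. The 6 proximal tubule markers ran from 0.0912 times for the glucose transporter Slc5a2 to 1.63 times for Kap. Only Atp6v0d2 and Kap of these markers were above the median of the others. Over all 8 kidneys the differences were -0.48 for Rhbg, -0.55 for Rnf43, 0.041 for Axin2, -0.083 for Tbx3 and -0.089 for Oat (limma adjusted p = 0.9999 for each). Whether the low members share a cause with these markers was not tested.

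Without A115, Rhbg was higher in ADV-conditioned kidneys. The 3 remaining ADV-conditioned kidneys (11.4 ± 1.36 FPKM, n = 3) lay above all 4 LD-conditioned kidneys (7.83 ± 0.676 FPKM), with a difference of 0.53 (interval 0.26 to 0.80, limma adjusted p = 0.0228). This must be read against the background: without A115, 18.8% of all genes were called and 24.8% had every ADV value above every LD value (32.8% apart in either direction), and the median of all genes moved to 0.20. Markers of the thick limb, distal tubule and collecting duct (8, none at 0) are given beside it. Their mean log2 level relative to the LD mean was 0.24 to 0.39 in the 3 ADV-conditioned kidneys and -0.078 to 0.18 in the LD-conditioned ones, their summed levels overlapped (2135 to 2952 and 1811 to 2325 FPKM), and 2 of the 8 were called, both higher. The mitochondrial share was 9.43% to 13.1% in these 3 kidneys and 15.7% to 18.02% in the LD-conditioned ones, and 17772 to 18828 against 17207 to 17645 genes were above 0, so neither range overlapped. The part of the markers, the mitochondrial share and the genes found in the value of Rhbg was not tested. Scaled by the median ratio as well, Rhbg had a difference of 0.34 and no longer passed (limma adjusted p = 0.0822), with 16% of genes called. With the kidneys of A94 and A115 both left out, a choice made after seeing the data that leaves 2 ADV-conditioned kidneys, it was 0.44 (interval 0.14 to 0.74) and did not pass either (limma adjusted p = 0.0792), with 4.7% of genes called. Rnf43 also had groups that did not overlap, meeting at 1.12 FPKM (0.761 to 1.12 and 1.12 to 1.46 FPKM), without passing the test (0.41, limma adjusted p = 0.166). The remaining 7 members were not called without A115. The differences were then 0.20 for Glul, -0.079 for Slc1a2, 0.14 for Oat, 0.44 for Axin2, 0.043 for Znrf3, -0.19 for Lgr5 and 0.27 for Tbx3. With median ratio scaling added they were, in the same order, 0.012, -0.24, -0.047, 0.29, -0.14, -0.30 and 0.090. Without the kidney of A94 alone, the differences ran from -0.88 for Rhbg to 0.14 for Glul, and 0 of 9 were called.

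Since the same mice gave both organs, the effect of ADV in liver was tested against that in kidney. None of the 9 differences passed (limma interaction over 14379 genes, adjusted p = 0.9999 for each member), 0% of all genes were called, and 0 of 9 members had an unadjusted p under 0.05. The largest estimates were those of Rnf43 (0.75, interval -1.19 to 2.70) and Rhbg (0.36, interval -1.79 to 2.51), both with wide intervals, and without A115 both turned, to -0.18 and -0.55. Leaving out A94 and A115, the effect on Rhbg was lower in liver than in kidney by 1.01 on the log2 scale (interval -1.51 to -0.51, limma adjusted p = 0.0331), and it was the only member called, with 5.25% of all genes called. That reading rests on 2 ADV-conditioned mice and on libraries that were left out after their values had been seen.

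The organs differed far more than the conditions. Over the 16 libraries, 6 members were higher in liver (Slc1a2, Lgr5, Oat, Rnf43, Tbx3 and Axin2), 2 were higher in kidney (Znrf3 and Rhbg) and Glul did not pass, at an adjusted p of 0.05 in limma over 14379 genes. Of all genes 74.5% were called, 13.1% higher in liver and 61.5% higher in kidney, with a median difference of -0.74 for liver minus kidney. Scaling by the median ratio brought that median to -0.01 and the shares to 31.5% and 33.8%. The members are therefore given on both scales. A sequencing batch, if it followed the organs, cannot be told apart from these differences on either scale.

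Slc1a2 was the member most restricted to liver of the 9, with 14.8 to 24.6 FPKM in livers and 0.517 to 0.723 FPKM in kidneys, a ratio of means of 32.1 (4.78 on the log2 scale, interval 4.55 to 5.01, limma adjusted p = 4.5e-15, and 5.48 under median ratio scaling). Lgr5 was 2.03 higher (interval 1.54 to 2.53, limma adjusted p = 1.1e-06), and 0.74 with a pseudocount of 1. Oat was 1.92 higher (interval 1.56 to 2.28, limma adjusted p = 5.1e-08), with 187 to 372 FPKM in livers and 46.2 to 94.1 FPKM in kidneys. For these 3 genes every liver was above every kidney, which held for 8.57% of all genes. Rnf43 (1.88, limma adjusted p = 0.00160) and Tbx3 (1.75, limma adjusted p = 8.6e-06) had the same complete separation. Axin2 was higher in liver within 8 of 8 mice (1.22, interval 0.63 to 1.82, limma adjusted p = 9.7e-04), although its highest kidney value exceeded its lowest liver value. All 6 stayed called under median ratio scaling, with larger differences of 1.88 to 5.48, and with a pseudocount of 1, where Axin2 was at 0.52 and Rnf43 at 1.11.

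Glul, a classical marker of the pericentral zone, did not separate the organs as deposited. Livers held 198 to 375 FPKM and kidneys 237 to 313 FPKM, and the difference was -0.02 (interval -0.27 to 0.23, limma adjusted p = 0.872). Under median ratio scaling it became 0.75 and passed (limma adjusted p = 6.2e-05), while the median of all genes moved from -0.74 to -0.01. Znrf3 was lower in every liver than in every kidney (0.941 to 1.34 against 1.55 to 1.98 FPKM, as 34.8% of all genes were, -0.62, limma adjusted p = 8.7e-05), a direction that turned to 0.10 without a call under median ratio scaling (limma adjusted p = 0.509). Its paralogue Rnf43 was higher in liver in both scalings. Rhbg was higher in kidney in 7 of 8 mice, A115 being the exception, at a kidney-to-liver ratio of means of 3.01 (-1.34, limma adjusted p = 0.0256). Median ratio scaling gave -0.59 without a call (limma adjusted p = 0.228), and leaving out A115 gave -1.79. The call was also lost when L63, L86, A75 or A91 was left out, at -1.31, -1.26, -1.11 and -1.11. Of the reference genes of the lobule, Cyp1a2, Cyp7a1 and Cps1 were listed at 0 in all 8 kidneys, while Cyp2e1 (683 to 1057 FPKM) and Ass1 (334 to 1566 FPKM) were found there.

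**Figure D4:**
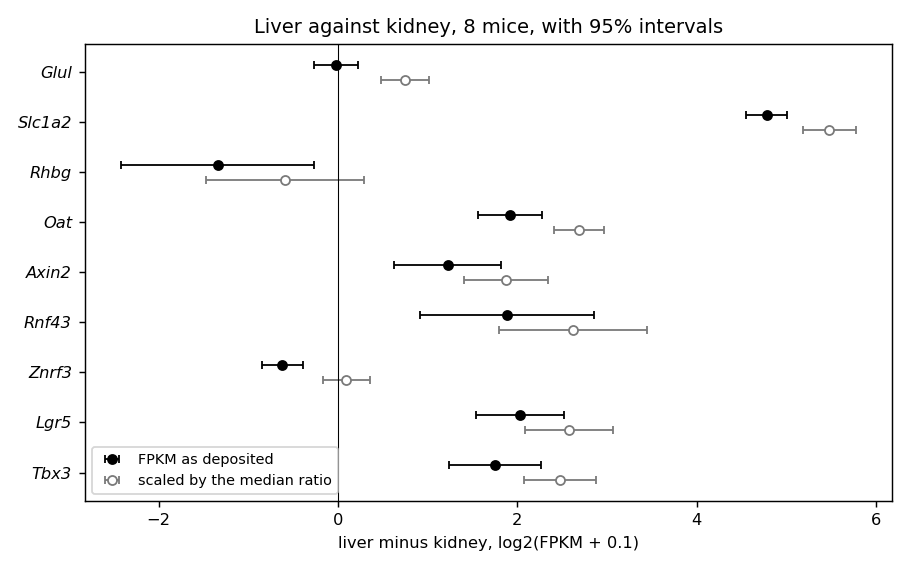
Difference of liver minus kidney on the log2(FPKM + 0.1) scale over 8 mice for each member, with 95% limma intervals, for FPKM as deposited (filled) and after scaling by the median ratio (open). Slc1a2 lies farthest to the right at 4.78, Glul and Znrf3 move from -0.02 to 0.75 and from -0.62 to 0.10, and the other members keep their side of 0.

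Finally, the 36 pairs of members were correlated over the 8 livers. No pair passed (0 of 36 with a Benjamini-Hochberg adjusted exact permutation p under 0.05, and 3 of 36 with an unadjusted p under 0.05). Pearson's r had a median of 0.31 and was above 0 in 27 pairs. The highest was between the feedback genes Axin2 and Rnf43 (r = 0.80, exact permutation p = 0.0152, adjusted p = 0.383, and rho = 0.79, exact p = 0.0279, adjusted p = 0.503), and it fell to 0.48 without the 2 livers farthest from the Axin2 median. Axin2 with Tbx3 had r = 0.79 (exact permutation p = 0.0213, adjusted p = 0.383, and rho = 0.83, exact p = 0.0154, adjusted p = 0.503), and r = 0.82 without the 2 farthest livers and 0.88 after centring on the condition means. Slc1a2 with Znrf3 had r = 0.75 (exact permutation p = 0.0359, adjusted p = 0.431, and rho = 0.69, exact p = 0.0694, adjusted p = 0.577), 0.71 without the 2 farthest and 0.68 after centring.

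The r of Glul was 0.42 with Axin2 (exact permutation p = 0.292, adjusted p = 0.700, rho = 0.21, exact p = 0.619), 0.49 with Rnf43 (exact permutation p = 0.214, adjusted p = 0.700, rho = 0.10, exact p = 0.840) and 0.22 with Znrf3 (exact permutation p = 0.610, adjusted p = 0.825, rho = 0.14, exact p = 0.752), with an adjusted p of 0.917 for each rho. Without A94 these were -0.20, -0.41 and 0.0054. With A94 left out, the median r over the 36 pairs was 0.01 with 19 pairs above 0, and median ratio scaling with A94 kept gave the same median and number. Among all 12835 genes tested, those most like Glul over the 8 livers were Aebp1, Plaur, Efr3b, Carf and Cers5 (r = 0.97 to 0.99, and 0.94 to 0.97 without A94), and those most like Axin2 were Cog7, Mlec, Mapk6, Plpp5 and Cdc34 (r = 0.96 to 0.97, and 0.94 to 0.95 without A94). These are the top of a ranking over many genes and are given as a description.

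**Figure D5:**
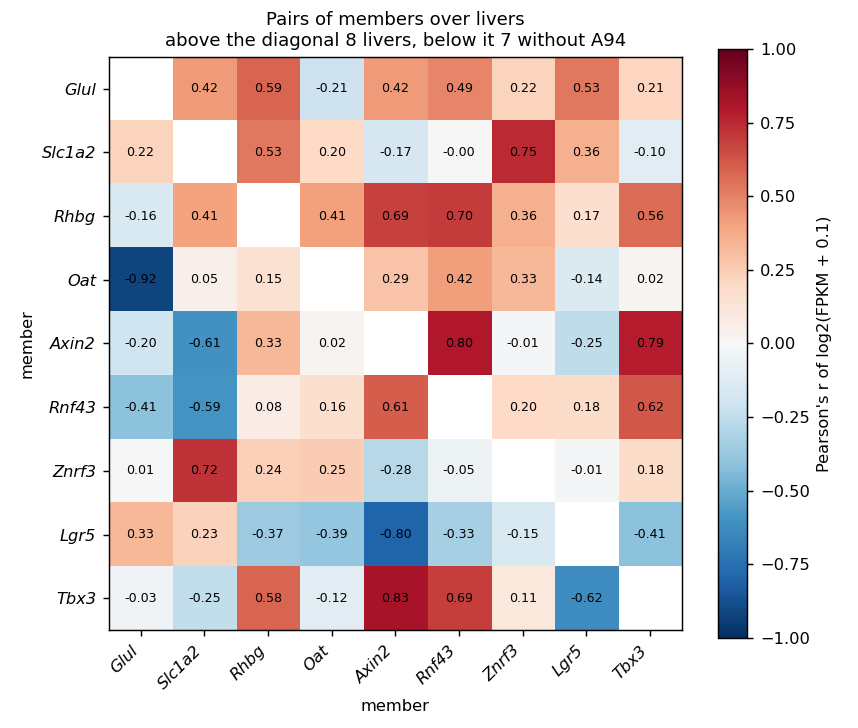
Pearson's r of log2(FPKM + 0.1) for each pair of members, with both axes listing the 9 members, over 8 livers above the diagonal and over 7 livers without A94 below it (red positive, blue negative). Axin2 with Rnf43 and with Tbx3 are the darkest red cells above the diagonal at 0.80 and 0.79, and Glul with Oat is the darkest blue cell below it at -0.92.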

How the data were processed

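Poly(A)-enriched RNA was sequenced as stranded paired-end libraries from liver and kidney of 8 mice. Per the labels and the study's methods, the authors called bases with bcl2fastq, trimmed reads with Trimmomatic, aligned them to mm10 with STAR 2.5.4b, filtered on mapping quality with SAMtools and counted exons with HOMER, and the deposited values are FPKM per gene (fragments scaled to exon length and library total). Because the deposited unit is FPKM, the main test was limma on a log scale, and the count test of the study was not run here. Multiplying FPKM by exon length and library total gave multiples of 0.5 fragments for 100% of values within 0.01, and these fragments were used for a limma-voom alternative.

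Genes with a mean above 0.5 CPM of recovered fragments were tested with limma 3.58.1 (R 4.3.3) on log2(FPKM + 0.1), with Benjamini-Hochberg adjustment over all genes tested and a threshold of 0.05. On this scale the changes of low genes are understated. Each organ was fitted alone for ADV against LD, and both organs together for the organ comparison and the interaction. Exact permutation tests, correlations and counts used Python 3.11.15, numpy 2.4.6 and scipy 1.17.1. On simulated data, with 200 genes shifted by 1.5 on the log2 scale, the liver fit over 12835 genes found 162 and called 6 others, and the kidney fit over 14452 genes found 99 and called 9 others. This shift is larger than any liver difference of the members, and the simulated noise was independent between genes. The counts therefore do not say how often smaller differences, or differences beside an outlying library, would be found.

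The members and lists were chosen with earlier results of these data known. The genes named beside the members were a set of reference genes, up to 3 genes with the smallest liver p of each list described, and the 5 genes most correlated with Glul and with Axin2. Markers of A115 kidney were chosen after its values were seen. Liver and kidney of a number come from the same mouse, and their deviations from the group means correlated at -0.02 to 0.55 over 12319 genes. Alternatives were pseudocounts of 0.5 and 1, other filters, scaling by the median ratio, quantile normalization, limma-voom, 1 fit for both organs, a replicate block for mice, and fits that each omitted 1 mouse.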

Additional observations from a re-analysis of the deposited data

Results flagged for a closer look

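In 11 of 98 groups of 4 mice, 1 mouse lay far from the other 3, judged by its gap to the nearest of them as a share of the whole range of the group on the log2 scale. Chance alone flags about 1 in 20 such groups, and the groups share libraries. Of these, 6 concerned the kidney of A115. Rhbg was at 0.590 FPKM there against 10.02 to 12.7 FPKM in the other ADV-conditioned kidneys (gap share 0.918), Rnf43 at 0 against 1.12 to 1.46 FPKM (0.911), and Oat at 46.2 against 84.4 to 94.1 FPKM (0.847). In the same kidney Notum was at 0.182 against 4.54 to 6.64 FPKM (0.882), Wnt9b at 0.0231 against 0.864 to 1.09 FPKM (0.905) and Ctnnb1 at 93.8 against 127 to 134 FPKM (0.840).

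In the liver of A94, Rhbg was at 5.68 against 1.67 to 1.96 FPKM in the other ADV-conditioned livers (0.873), and Tcf7 at 2.89 against 0.891 to 1.04 FPKM (0.874). Among LD-conditioned livers, Oat was at 320 FPKM in L104 against 284 to 289 FPKM (0.835), Cyp7a1 at 63.6 FPKM in L63 against 25.1 to 27.6 FPKM (0.900) and Lgr4 at 12.1 FPKM in L86 against 10.1 to 10.2 FPKM (0.927).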

How the results depend on the processing

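In liver no member passed the test under any of the alternatives or with any mouse left out (0 to 0 called). Some estimates changed sign: Lgr5 was -0.12 under quantile normalization and -0.016 with A94 left out and median ratio scaling. With each mouse left out in turn, liver estimates ran from -0.52 to 0.049 for Rhbg, -0.13 to 0.20 for Oat, -0.16 to 0.32 for Lgr5 and -0.16 to 0.16 for Tbx3. In kidney, median ratio scaling gave 0.00017 for Slc1a2 and -0.0038 for Axin2, and Axin2 was -0.039 under quantile normalization and -0.035 in limma-voom. Leaving out A115 with median ratio scaling, a choice made after seeing the data, gave 0.34 for Rhbg, 0.23 for Rnf43 and 0.090 for Tbx3, and leaving out A94 and A115, also added then, gave 0.44 for Rhbg, 0.096 for Oat, 0.52 for Rnf43, 0.031 for Znrf3 and 0.031 for Tbx3, with 0 called. With each mouse left out, 0 to 1 kidney members were called (Rhbg without A115), and estimates ran from -0.079 to 0.043 for Slc1a2, -0.88 to 0.53 for Rhbg, -0.20 to 0.14 for Oat, -0.24 to 0.44 for Axin2, -0.91 to 0.41 for Rnf43, -0.059 to 0.051 for Znrf3, -0.35 to 0.0067 for Lgr5 and -0.36 to 0.27 for Tbx3. Between the organs, median ratio scaling gave 0.75 for Glul and 0.10 for Znrf3, Glul ran from -0.071 to 0.072 with each mouse left out, and 7 to 8 members were called. With a pseudocount of 1, low genes differed less between the organs, Lgr5 by 0.74, Axin2 by 0.52, Rnf43 by 1.11 and Tbx3 by 1.25, and all 4 stayed called.

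For the effect in liver minus that in kidney, Oat was -0.0087 and Tbx3 -0.024 under median ratio scaling, and Tbx3 was -0.010 with a pseudocount of 1. With A94 and A115 left out, also chosen after seeing the data, 1 member was called, and the values were -1.01 for Rhbg, -0.15 for Axin2, -0.49 for Rnf43, -0.052 for Lgr5 and -0.34 for Tbx3. Leaving out each mouse gave 0 to 0 called, with -0.12 to 0.17 for Glul, -0.55 to 0.82 for Rhbg, -0.020 to 0.17 for Oat, -0.11 to 0.63 for Axin2, -0.18 to 1.25 for Rnf43, -0.0018 to 0.44 for Lgr5 and -0.39 to 0.30 for Tbx3. With the mouse as a replicate block, pairing liver and kidney, 8 members differed between the organs and 0 in the effect, and the block changed no call. The cause of these shifts was not tested. Lgr5 and Axin2 in kidney rested on 5 to 19 and 8 to 60.5 fragments, which limits their precision.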
